A study of Homo sapiens with 7 samples.

Results

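The subject is the 5-hydroxymethylcytosine (5-hmC) landscape around MYCN on the short arm of chromosome 2 in SK-N-BE(2), an established human neuroblastoma cell line that carries an amplified MYCN gene. The members are the 5-hmC peaks whose midpoint lies, in hg19, on chromosome 2 between 15000000 and 17500000, a span of 2.5 Mb. They were counted in the gene bodies of NBAS, DDX1, MYCN and FAM49A and in the spaces between them. The span held 2571 of the 1873636 peaks of the 6 lists, summed over the lists: 414 peaks at 0 h, 413 after 6 h, 424 after 12 h, 432 after 24 h, 431 after 48 h and 457 after 72 h. Normoxia means 21% oxygen and was sampled at 0 h only. Hypoxia means 1% oxygen and was sampled after 6, 12, 24, 48 and 72 h, so that oxygen and time in culture cannot be told apart. The genotype label is WT throughout. Genomic DNA sheared to 300 bp was labelled at 5-hmC by a glucosyltransferase, captured and sequenced. Each time has 1 library and 1 list of peaks, and the input library of normoxia was not analysed here. The line stands for 1 tumour's cells. With 1 sample per time no test of a difference between times was possible, and differences are described by size. The span and its genes were chosen by the number of peaks and the covered length in these same lists, relative to list totals, so those values are given as a description.

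5-hmC is made from 5-methylcytosine by the TET dioxygenases, which need oxygen, iron and alpha-ketoglutarate, and it is found mostly at CpG sites of gene bodies and enhancers. MYCN is a transcription factor of the MYC family, and its amplification marks a group of aggressive neuroblastomas. Copies of such an amplicon carry MYCN with a variable length of flanking DNA, so that neighbours such as DDX1, a DEAD-box RNA helicase, and NBAS, a factor of Golgi-to-endoplasmic reticulum transport, are amplified together with it in some tumours and not in others. FAM49A, now named CYRIA, encodes a protein that binds the small GTPase RAC1. The capture reads 5-hmC over all copies of a locus together. The number of copies per cell was not measured here, so that less 5-hmC on each copy and fewer copies in each cell cannot be told apart.

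The sequences just before the annotated starts of MYCN, DDX1 and NBAS are shown. They were chosen because a 5-hmC peak lay at the rounded 5' bound of DDX1 and of NBAS and none lay at that of MYCN. Each run gives the 250 bases before the start, 5' to 3' on the gene's own strand, from RefSeq in the build GRCh38.p14, with CpG dinucleotides in capitals. The 3 lie at chr2:15940300-15940549 (plus strand), chr2:15591618-15591867 (plus strand) and chr2:15561335-15561584 (minus strand) of GRCh38.p14, coordinates that cannot be set beside the hg19 positions of the peaks.
MYCN: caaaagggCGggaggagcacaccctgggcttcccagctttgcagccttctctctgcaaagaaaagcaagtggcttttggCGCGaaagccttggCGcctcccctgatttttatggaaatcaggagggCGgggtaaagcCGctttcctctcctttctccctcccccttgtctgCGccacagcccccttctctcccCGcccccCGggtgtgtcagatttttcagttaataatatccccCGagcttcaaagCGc
DDX1: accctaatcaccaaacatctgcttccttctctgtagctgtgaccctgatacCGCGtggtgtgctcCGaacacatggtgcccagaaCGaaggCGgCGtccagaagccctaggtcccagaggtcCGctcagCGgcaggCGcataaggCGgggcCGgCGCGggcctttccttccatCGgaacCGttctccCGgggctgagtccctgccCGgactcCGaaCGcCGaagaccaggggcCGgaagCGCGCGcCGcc
NBAS: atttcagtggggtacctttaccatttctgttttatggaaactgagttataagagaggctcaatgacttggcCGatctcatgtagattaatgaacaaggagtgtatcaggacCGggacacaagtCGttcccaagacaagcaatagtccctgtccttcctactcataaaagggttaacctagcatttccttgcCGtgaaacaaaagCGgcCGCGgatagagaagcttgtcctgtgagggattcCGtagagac
The MYCN sequence holds 11 CpG, the DDX1 sequence 25 and the NBAS sequence 8, where the median over 35116 RefSeq promoters of the same length is 11. Fewer CpG than in MYCN are found in 49.7% of those promoters, fewer than in DDX1 in 78.4% and fewer than in NBAS in 43.7%. CACGTG, the E-box letters read by MYC proteins, is in none of the 3 on either strand and in 6.34% of all promoters. ACGTG, letters of the hypoxia response element, is in none of the 3 and in 18.5% of all, and GCGTG is in that of DDX1 alone and in 32.2% of all, both strands searched. CACGTG contains ACGTG, so the 2 searches overlap.

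In hg19, the nearest peak to the MYCN bound (16080000) was 3.11 kb away at 0 h, 3.12 kb after 6 h, 3.08 kb after 12 h, 3.11 kb after 24 h, 4.18 kb after 48 h and 4.2 kb after 72 h. No list had a peak within 2 kb of it. At the DDX1 bound (15731000) every list had a peak, at most 15 bp away. Its width was 492 bp at 0 h, 780 bp after 6 and 12 h, 681 bp after 24 h, 792 bp after 48 h and 827 bp after 72 h. At the NBAS bound (15702000) every list had a peak across it, which by its midpoint counts in the space from NBAS to DDX1. Its width was 1390 bp at 0 h, 1532 bp after 6 h, 1433 bp after 12 h, 1630 bp after 24 h, 1598 bp after 48 h and 1684 bp after 72 h. The 0 h peak was the narrowest of the 6 at both genes. Gene bounds are in whole kb. The DDX1 interval (41 kb) and the MYCN interval (8 kb) are longer than the RefSeq genes (39234 and 6455 bp). A peak at a bound therefore need not lie at the annotated start, and distances to a start are approximate. The longer RefSeq model of NBAS (782426 bp, against 395 kb here) reaches beyond its interval. NBAS is on the minus strand, so with its start at the upper bound that model would extend to lower positions. It would take in the whole space from the left edge to NBAS (307 kb), which is counted here as outside the gene, and pass the left edge.

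Facts of the whole lists frame these values. Peak number was higher in later lists, with 285292 peaks covering 147 Mb at 0 h and 352484 peaks covering 192 Mb at 72 h, so counts are also given relative to list totals. A relative ratio is the ratio to 0 h divided by the ratio of the totals. Intervals given for ratios of peak numbers are exact 95% intervals for counting error alone. Read depth is unknown, since the lists hold no heights or read counts. The narrowest peak of a list was 226 to 242 bp wide.

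The MYCN interval held fewer peaks and less covered length in later lists. It had 4 peaks at 0 h, 3 each at 6, 12 and 24 h, and 2 each at 48 and 72 h. They covered 1.96 kb at 0 h, 1.62 kb after 6 h, 1.69 kb after 12 h, 1.61 kb after 24 h, 1.23 kb after 48 h and 1.24 kb after 72 h of the 8 kb interval. All 5 hypoxia lists covered less of it than the normoxia list, and the lists of 48 and 72 h covered least. Covered length at 72 h was 0.485 times that at 0 h relative to totals and 0.635 times without scaling. The relative ratio of peak number at 72 h was 0.405, with an interval of 0.0366 to 2.82 that rests on 2 peaks and 4 peaks.

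The 4 sites of the interval had different courses. The site from 16083085 to 16083413 was 306 bp wide at 0 h, 262 bp after 6 h, 308 bp after 12 h and 279 bp after 24 h, and it had no peak at 48 and 72 h. The next, from 16084142 to 16084552, was held by all lists, at 405, 394, 402 and 391 bp from 0 to 24 h and 312 and 316 bp after 48 and 72 h. The main site of the gene, from 16085201 to 16086203, measured 1003 bp at 0 h, 968 bp after 6 h, 979 bp after 12 h, 940 bp after 24 h, 913 bp after 48 h and 928 bp after 72 h. Its largest width was that of 0 h, as at 9.4% of all sites held by the 6 lists. The smallest was that of 48 h (10.3% of all such sites), as it is for the site before it. Both sites lie in a run described below that was picked by its 48 h widths. The last, from 16087604 to 16087849, was a 246 bp peak of normoxia alone. The interval is 8 kb and the RefSeq gene 6455 bp long. With bounds in whole kb the gene starts in the first kb of the interval at the latest. By that length it ends before this last site, which then lies outside the gene. The difference in peak number between normoxia and the lists of 6, 12 and 24 h is this site alone. The ratios given above for the interval include it.

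**Figure D1:**
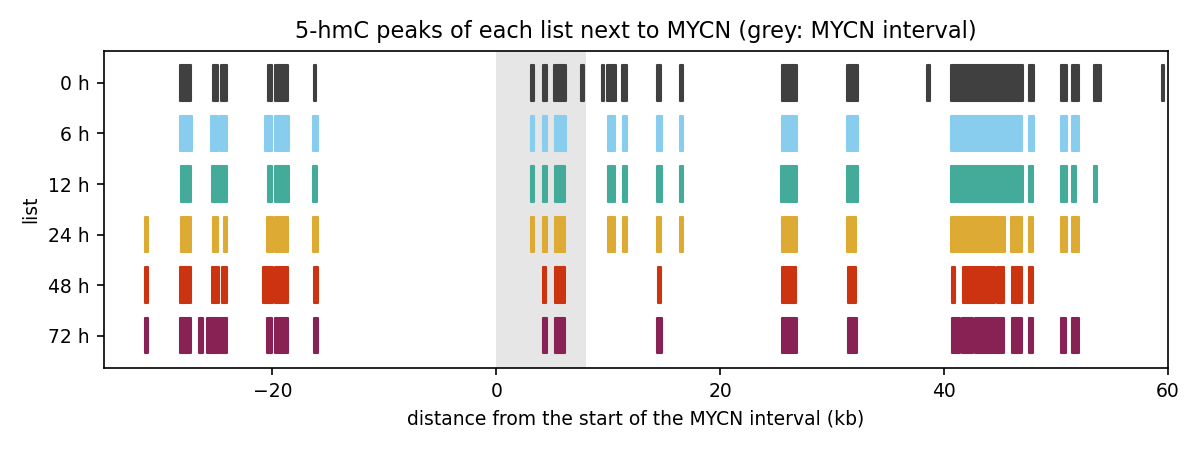
Peaks of each list (one row per time, 0 h at the top) against the distance in kb from the start of the MYCN interval, which is shaded. Of the plotted peaks left of the interval those of 0 h are found in every later list, while inside it and to its right several of the narrow peaks are missing at 48 and 72 h and the widest peak is split.

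The space from MYCN to FAM49A (16088001 to 16733000) was the only one of the 5 spaces that covered less at 72 h than at 0 h without scaling. It had 127 peaks at 0 h, 114 after 6 h, 116 after 12 h, 119 after 24 h, 90 after 48 h and 102 after 72 h. They covered 94.9 kb at 0 h, 86.8 kb after 6 h, 84.1 kb after 12 h, 83.3 kb after 24 h, 60.6 kb after 48 h and 73.8 kb after 72 h. Every hypoxia list lay below normoxia in both measures, 48 h lay lowest, and 72 h lay between 24 and 48 h. The relative ratio of peak number was 0.6 after 48 h (interval 0.453 to 0.792) and 0.65 after 72 h (0.496 to 0.85). The relative ratio of covered length was 0.524 after 48 h and 0.594 after 72 h, and it was 0.854 after 6 h. Peaks of at least 1000 bp numbered 30 at 0 h, 14 after 48 h and 23 after 72 h, where the whole lists had 22061, 27727 and 30562.

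The 50 kb windows show the same place. Of the 50 windows of the span, 45 had a mean covered length of at least 1.6 kb over the 6 lists, and a window was called lower or higher when its relative ratio was at most 0.667 or at least 1.5. Lower windows numbered 0 after 6 h (background over all 27727 tested windows 2.12%), 1 after 12 h (2.07%), 0 after 24 h (1.21%), 10 after 48 h (1.61%) and 10 after 72 h (2.38%). That is 22.2% of the tested windows of the span at 48 h and again at 72 h, but since the span was chosen for this contrast nothing is read from the excess. All 10 lay from 16050001 to 16600000 at both times, with ratios of 0.427 to 0.625 after 48 h and 0.505 to 0.649 after 72 h. The window from 16300001 to 16350000, in their midst, was under the minimum and held 3 peaks at 0 h, 0 after 48 h and 2 after 72 h. The lower window of 12 h was another, from 16650001 to 16700000, with 1 peak at 12 h and 4 or 5 in each other list.

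At 0 h the 10 lower windows had between 4.27 and 14.7 kb covered, more than 61.1% to 95.6% of all tested windows, and the untested one among them 1.79 kb. The window from 16350001 to 16400000 had the 14.7 kb, in 19 peaks, and that from 16200001 to 16250000 had 14.1 kb. At 48 h these windows had 9.78 and 9.2 kb. The window from 16550001 to 16600000 had the lowest relative ratio of the span's tested windows at 48 h, with 2.95 kb after 48 h against 5.67 kb at 0 h, and 0.0144% of all tested windows had a ratio as low or lower. At 72 h it had 3.96 kb, and 0.357% of tested windows lay as low. It was picked as the lowest of a span chosen on such values, so these shares are a description and no test.

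**Figure D2:**
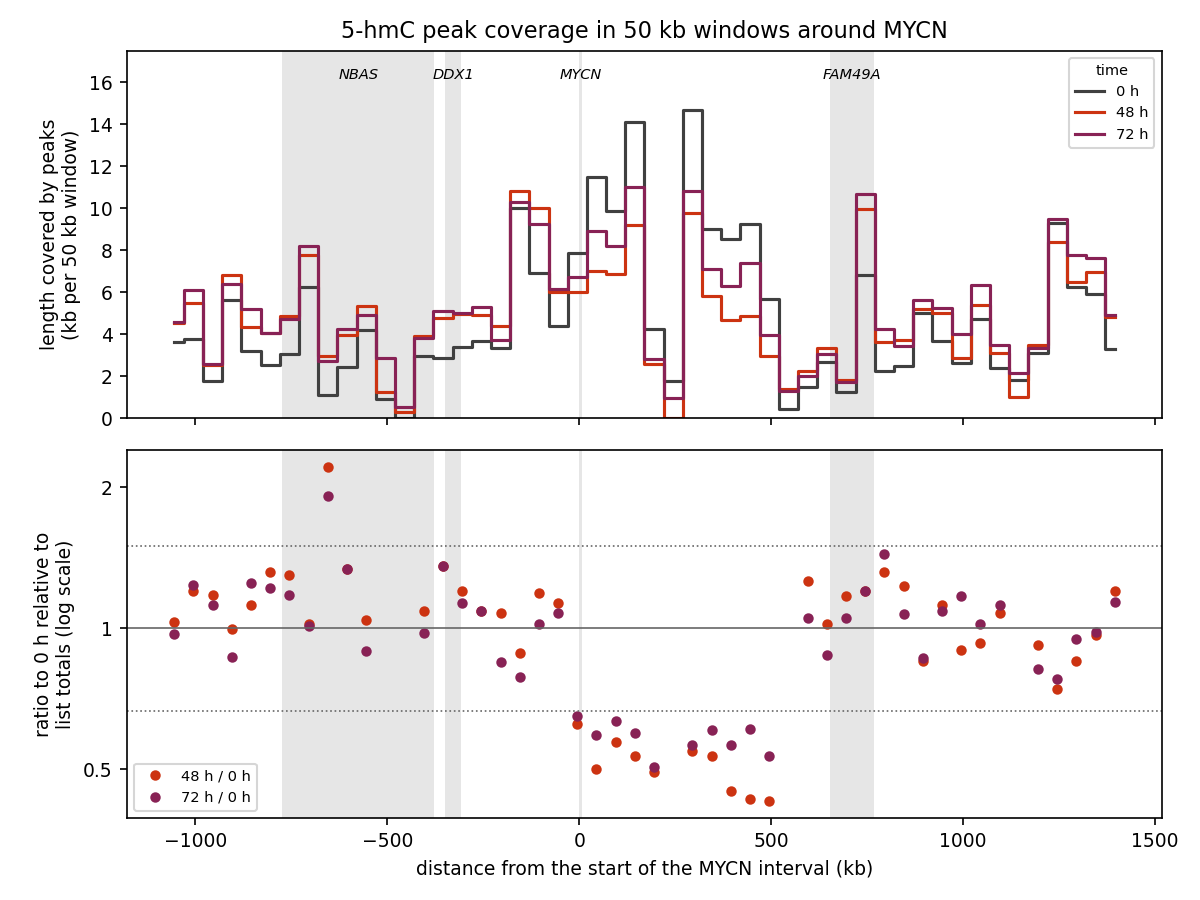
Covered length per 50 kb window (upper panel, kb, at 0, 48 and 72 h) and its ratio to 0 h relative to list totals in the tested windows (lower panel, log scale, dotted lines at the thresholds) against distance in kb from the start of the MYCN interval, with gene bodies shaded. The 10 lower windows form a block that begins at MYCN and ends before FAM49A, and 1 window in NBAS lies above the upper threshold.

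For 48 h against 0 h the edges could be placed between single sites, and other times or another reference gave other edges. Peaks that overlapped in any lists were joined to 1 region, and a region held by all 6 lists is called a constant site. Its width is the summed length of its peaks. From 16084142, in the MYCN gene, to 16589054, 64 constant sites in a row were narrower at 48 h than at 0 h, while 32.7% of the 194293 constant sites of all chromosomes were. The next longest run anywhere had 15 sites, on chromosome 9. At 72 h the longest run had 45 sites, from 16231434 to 16589054, against a background of 28.6%, and the next longest elsewhere had 13, on chromosome 11. At 24 h the longest had 42 sites (background 36.6%), at 12 h 20 (43.4%) and at 6 h 22 (39.3%), and each of these lay on chromosome 2 between 16239053 and 16688382. The run of 6 h reached past the right end of that of 48 h. All 5 comparisons share the normoxia list, so they do not stand for 5 separate observations. The span was chosen by covered length in these lists, and the runs were picked as the longest. Nothing is therefore read from their distance to the background or to runs elsewhere.

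On the left, the constant site before the run, from 16063636 to 16064048, was 226 bp wide at 0 h, 355 bp after 48 h and 367 bp after 72 h. Its 226 bp are the narrowest width in the 0 h list, and no 48 h peak was under 232 bp. This site could therefore not be narrower at 48 h, and the left edge rests on that limit. With 6 h as the reference the run passed this site and began at 16060200. Between this site and the first narrowed constant site lay 20.1 kb. On the right, the last narrowed site, from 16588600 to 16589054, was 455 bp wide at 0 h, 271 bp after 48 h and 341 bp after 72 h. The next constant site, 23.3 kb on, had 445 bp at 0 h, 445 bp after 48 h and 523 bp after 72 h. The part between these 2 outer sites, 16064049 to 16612387 or 548 kb, is called the stretch below. It begins upstream of MYCN, holds the whole MYCN interval and ends short of FAM49A, and DDX1 and NBAS lie outside it. Its bounds rest on the 48 h widths, so that 64 of 64 narrower sites at 48 h follow from how it was drawn.

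**Figure D3:**
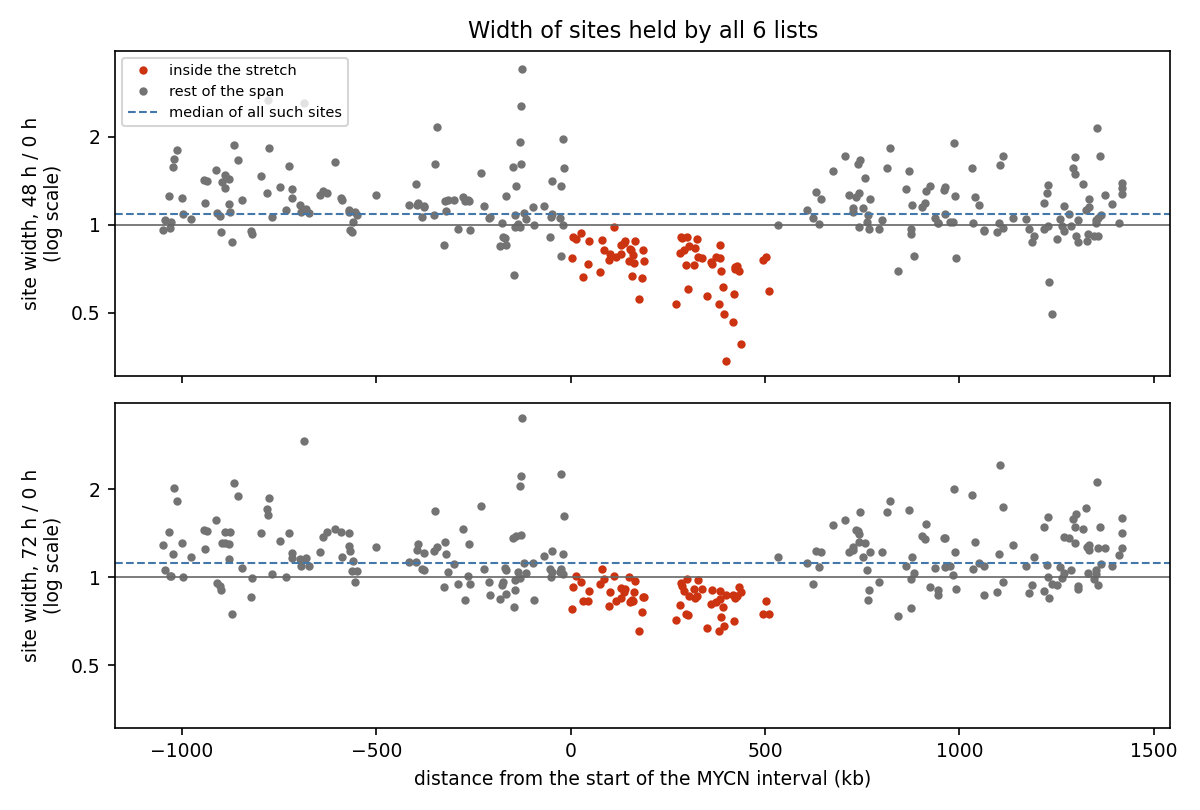
Width of each constant site at 48 h (upper panel) and 72 h (lower panel) divided by its width at 0 h, on a log scale, against distance in kb from the start of the MYCN interval. The 64 sites of the stretch lie below 1 after 48 h and 60 of them at 72 h, while most of the 220 sites of the rest of the span lie above 1, near the dashed median of all constant sites.

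Within the stretch the widths of constant sites followed a common course. Their median was 949.5 bp at 0 h, 915 bp after 6 h, 866 bp after 12 h, 798.5 bp after 24 h, 654.5 bp after 48 h and 763 bp after 72 h. The median ratio to 0 h was 0.964 after 6 h, 0.956 after 12 h, 0.931 after 24 h, 0.77 after 48 h and 0.858 after 72 h. In the rest of the span the median ratios were 1.06, 1.04, 1.11, 1.15 and 1.17 at these times, and over all constant sites 1.05, 1.03, 1.06, 1.09 and 1.12. The median width at 0 h was 459.5 bp in the rest of the span and 483 bp over all constant sites. Sites near the narrowest width of a list have little room to narrow, and the ratios are not matched for width. Sites narrower than at 0 h numbered 55 of 64 after 6 h, 57 after 12 h, 62 after 24 h, 64 after 48 h and 60 after 72 h. In the last step, 60 of 64 were wider at 72 h than at 48 h and 3 were narrower, where 42.0% of all constant sites were narrower. The 48 h list gave the narrowest of the 6 widths at 60 of 64 sites in the stretch (background 10.3%) and at 14 of 220 in the rest of the span. The 0 h list gave the widest at 52 of 64 (background 9.4%) and at 8 of 220. Since the stretch was drawn where the 48 h width was below that of 0 h, these counts lean on the choice and nothing is read from their distance to the background. The quartiles of the ratio at 6 h were 0.928 and 0.985 in the stretch, and 0.928 and 1.19 over all constant sites.

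Narrow sites were missing and wide ones were kept. The stretch was drawn from the 48 h and 0 h widths, so absences in it lean on the choice. Nothing is read from their distance to the background. The stretch held 126 regions, of which 120 had a peak at 0 h. Of these 120, 56 were absent at 48 h, or 46.7%, against 7.86% in the rest of the span and 10.4% over all regions. At 72 h 38 were absent, or 31.7%, against 9.64% and 10.2%. The 38 were absent at both times. Of the 126 regions 17 were held by the lists of 0 to 24 h and by neither later one (0.335% of all regions), and 16 were missing from the 48 h list alone (0.642%). Among the 28 regions under 300 bp at 0 h, 27 were absent at 48 h and 24 after 72 h, while 28.8% and 27.4% of such regions were absent over all chromosomes. From 500 bp to under 1000 bp, 9 of 25 were absent at 48 h and 3 were absent at 72 h, against 1.05% and 1.15% overall. None of the 31 regions of at least 1000 bp was absent at 48 or 72 h, and over all chromosomes 5 and 4 of 26993 were.

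Few sites were added in the stretch. Its bounds were drawn from the 48 h and 0 h widths, so these shares too are a description. Regions absent at 0 h numbered 6 of 126 in the stretch (4.76%), 152 of 432 in the rest of the span (35.2%) and 37.2% over all regions. Absent at 0 h and held at 72 h were 2 regions of the stretch, or 1.59%, against 23.4% in the rest of the span and a background of 24.2%. Of those 2, one (16607996 to 16608372, 322 bp after 48 h and 377 bp after 72 h) lay beyond the last narrowed site and one (16518301 to 16518598) was a 298 bp peak of 72 h alone. The other 4 were each in 1 list, 3 of them at 6 h and 1 after 12 h. Absent at 0 h and held by all 5 hypoxia lists were 0 of the 126 regions, 13 of 432 in the rest of the span and 3.0% of all regions, so that few were to be found in a set of this size.

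**Figure D4:**
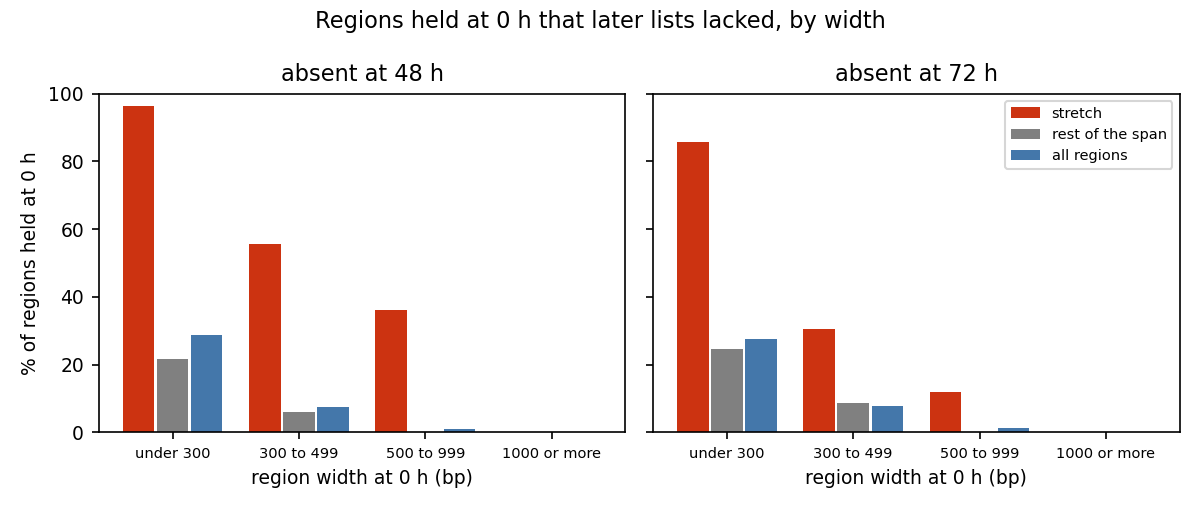
Percent of the regions held at 0 h that had no peak at 48 h (left) and 72 h (right), by width at 0 h in bp, for the stretch, the rest of the span and all regions. Bars of the stretch are higher in the 3 classes under 1000 bp and at 0 in the widest class.

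Of the 5 widest 0 h peaks of the span 4 lay in the stretch, and 3 of the 5 were covered by more than 1 peak at 72 h. The widest 0 h peak of the span, from 16120622 to 16127052 between MYCN and FAM49A, measured 6431 bp and ranked 31 in the whole normoxia list by width. At 6 h it was 1 peak of 6376 bp. At 12 h 3 peaks covered 6171 bp and at 24 h 3 covered 5747 bp. At 48 h 4 peaks covered 4709 bp and at 72 h 4 covered 5318 bp, the widest of these 4 being 2642 bp. The site from 16573307 to 16576133 was 2827 bp wide at 0 h and 2780 bp after 6 and 12 h, and 2138 and 2123 bp were covered by 2 peaks after 48 and 72 h. The sites from 16403977 to 16406516 and from 16232954 to 16235479 were single peaks at 72 h, with 2199 bp against 2540 bp at 0 h and 2094 bp against 2526 bp. The fifth widest 0 h peak lay outside the stretch, below the NBAS interval from 15047198 to 15049551, with 2354 bp at 0 h and 2374 bp in 2 peaks after 72 h.

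The largest losses and gains are ranked in bp, which favours wide regions. The stretch was drawn where the 48 h width was below that of 0 h, so nothing is read from their side of its edges. Of the 5 regions that lost most covered length between 0 and 72 h, all lay in the stretch. Besides the 2 widest they were the regions from 16089920 to 16090674 (755 bp at 0 h, no peak at 48 or 72 h), from 16133382 to 16134032 (651 bp at 0 h, a peak of 338 bp after 12 h and none in the other hypoxia lists) and from 16577469 to 16577969 (501 bp, normoxia alone). The 5 that gained most all lay outside it. The first, after FAM49A from 17370604 to 17373341, had 2646 bp after 72 h against 1670 bp at 0 h. The second lay in FAM49A and is given with that gene. The third, from 16899482 to 16901984, had 1817 bp against 996 bp, and the fifth, from 15209427 to 15210170, 744 bp against none at 0 h, with no peak at 48 h. The fourth lay in NBAS.

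NBAS and FAM49A, on either side of the stretch, had more covered length in later lists without scaling. NBAS had 43 peaks at 0 h, 46 after 6 h, 43 after 12 h, 41 after 24 h, 58 after 48 h and 63 after 72 h. They covered 20.4 kb at 0 h, 22.7 kb after 6 h, 21.6 kb after 12 h, 22.6 kb after 24 h, 29.1 kb after 48 h and 30.9 kb after 72 h. The lists of 48 and 72 h stand above the other 4, which lie close together. Relative to totals the covered length at 72 h was 1.16 times that at 0 h, and the ratio of peak number was 1.19 (interval 0.792 to 1.79). The ratio of covered length at 72 h was 1.52 without scaling. Scaled by the flanks, the parts of equal length before and after the span, it was 0.992. The higher covered length of NBAS thus did not exceed that of its surroundings. Of 30 constant sites in NBAS, 29 were wider at 72 h than at 0 h and 1 narrower, where 71.1% of all constant sites were wider. Absent at 0 h and held at 72 h were 23 of its 76 regions, against a background of 24.2%, and 10 of the 23 were in that list alone. The widest region of the span that normoxia lacked and all 5 hypoxia lists held lay in NBAS, from 15471201 to 15471948, with 574 bp after 6 h, 490 bp after 12 h, 496 bp after 24 h, 508 bp after 48 h and 748 bp after 72 h.

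The one tested window of the span called higher at 24, 48 and 72 h was in NBAS, from 15400001 to 15450000. It had 1.09 kb at 0 h, 1.42 kb after 6 h, 1.13 kb after 12 h, 1.91 kb after 24 h, 2.94 kb after 48 h and 2.74 kb after 72 h, with relative ratios of 1.56, 2.21 and 1.92 at the last 3 times. That is 1 of 45 windows, or 2.22%, below the background of higher windows, which was 5.04% after 24 h, 8.69% after 48 h and 10.7% after 72 h. At 12 h the 1 higher window lay from 17150001 to 17200000 (background 3.27%), and at 6 h there was 0 (background 3.34%). NBAS also held a part nearly without peaks, from 15600001 to 15650000, with 0 to 2 peaks in each list.

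DDX1 had more covered length in every hypoxia list than in normoxia, on few peaks. It had 8 peaks at 0 h, 10 after 6 h, 9 after 12 and 24 h, 10 after 48 h and 13 after 72 h. They covered 2.85 kb at 0 h, 4.03 kb after 6 h, 3.79 kb after 12 h, 3.95 kb after 24 h, 4.87 kb after 48 h and 5.45 kb after 72 h. The relative ratio of covered length was 1.46 after 72 h, and that of peak number 1.32 with an interval of 0.505 to 3.66. With 6 h in place of 0 h as the base, the ratio of covered length was 1.11 in DDX1, in NBAS and in FAM49A alike. Of 6 constant sites 5 were wider at 72 h (background 71.1%), among them the one at the lower bound of the DDX1 interval. Of the 14 regions of DDX1 3 were absent at 0 h and held by all 5 hypoxia lists (15733706 to 15734261, 15739392 to 15739871 and 15767762 to 15768180), where 3.0% of all regions were.

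FAM49A had 19 peaks at 0 h, 20 after 6 h, 19 after 12 h, 20 after 24 h, 24 after 48 h and 22 after 72 h. They covered 8.59 kb at 0 h, 9.49 kb after 6 h, 8.71 kb after 12 h, 10.7 kb after 24 h, 12.2 kb after 48 h and 12.9 kb after 72 h. The lists of 24, 48 and 72 h stand above the first 3. The relative ratio at 72 h was 1.15 for covered length and 0.937 for peak number (interval 0.484 to 1.83). For covered length it was 1.5 without scaling and 0.982 scaled by the flanks, so FAM49A too did not exceed those flanks. The spaces next to it had lower ratios without scaling, 0.778 from MYCN to FAM49A and 1.28 from FAM49A to the right edge. The median peak width in the gene was 489 bp after 72 h against 397 bp at 0 h. Of 15 constant sites 13 were wider at 72 h (background 71.1%), with a median ratio of 1.31, against 1.12 over all constant sites. The region of FAM49A that gained most, from 16810224 to 16811491, was 267 bp wide at 0 h, had no peak at 6 and 12 h, and measured 1022 bp after 24 h, 1033 bp after 48 h and 1088 bp after 72 h.

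**Figure D5:**
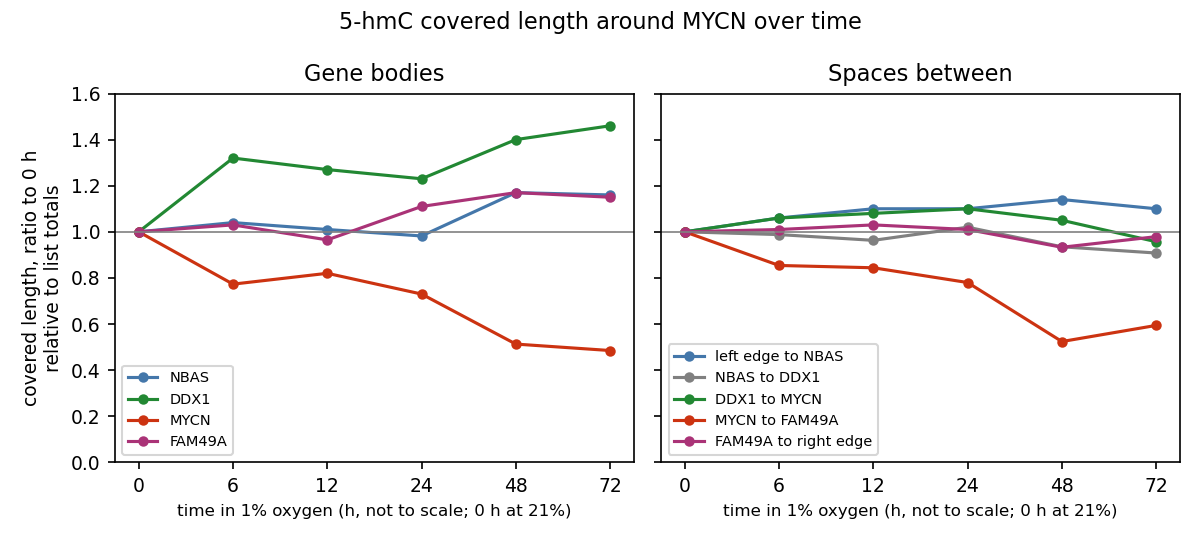
Covered length relative to list totals, as a ratio to 0 h, at each time for the 4 gene bodies (left) and the spaces between them (right). MYCN and the space after it lie below 1 at every hypoxia time, and DDX1 lies above 1 at every hypoxia time.

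The order of the genes by density of 5-hmC differed between the last and the first time. At 72 h covered length per kb of interval was 156 bp in MYCN, 133 bp in DDX1, 112 bp in FAM49A and 78.3 bp in NBAS. At 0 h it was 245 bp in MYCN, 69.4 bp in DDX1, 74.7 bp in FAM49A and 51.7 bp in NBAS. MYCN was the densest at both times, and DDX1 and FAM49A stood in the opposite order. With 1 library per time the spread of these levels is unknown, so neighbours in the order cannot be told apart with any stated error.

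The other 4 spaces had relative ratios of covered length of 0.908 to 1.1 after 72 h. The space from DDX1 to MYCN had 59 peaks covering 33.5 kb at 0 h, 75 covering 43.0 kb after 48 h and 70 covering 42.0 kb after 72 h. Its relative ratio of covered length was 1.05 after 48 h and 0.957 after 72 h, and 8 of its 56 regions held at 0 h were absent at 72 h (background 10.2%). The space before NBAS had 30.1 kb after 72 h against 20.9 kb at 0 h, a relative ratio of 1.1, and that after FAM49A 67.7 kb against 52.8 kb, a relative ratio of 0.979. The 3 peaks between NBAS and DDX1 were found in every list. Within the space after FAM49A, the window from 17200001 to 17250000 held 6 peaks at 0 h, 5 after 6 h, 3 after 12 h, 1 after 24 h, 3 after 48 h and 6 after 72 h, and it was under the minimum for a call.

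Stretches of the same length on both sides had more covered length in later lists. The stretch had 121 peaks covering 92.7 kb at 0 h, 107 and 84.2 kb after 6 h, 110 and 82.1 kb after 12 h, 109 and 79.5 kb after 24 h, 77 and 55.6 kb after 48 h and 92 and 69.5 kb after 72 h. The stretch was drawn from the lists of 48 and 0 h, so its ratios describe the choice and their intervals are no test. Its relative ratio of peak number was 0.539 after 48 h (interval 0.4 to 0.723) and 0.615 after 72 h (0.464 to 0.814). The part just before it had 60.7 kb after 72 h against 45.5 kb at 0 h, and the part just after it 47.6 kb against 33.8 kb. The relative ratio of peak number at 72 h was 1.06 before it (0.79 to 1.42) and 1.04 after it (0.754 to 1.45). At 0 h the stretch was the densest of the 3, with 169 bp covered per kb against 82.9 bp before and 61.6 bp after it. At 48 h it had 101 bp against 109 and 80.6 bp.

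The span as a whole did not keep pace with the lists. It covered 267 kb after 72 h against 238 kb at 0 h, which is 12.0% more, where the whole lists differed by 30.9%. The relative ratio at 72 h was 0.855 for covered length and 0.893 for peak number (interval 0.78 to 1.02), while without scaling both lay above 1, at 1.12 and 1.1. The 2.5 Mb before the span had a relative ratio of covered length of 1.17 and the 2.5 Mb after it 1.16. At the span's bounds, the windows just inside had 4.6 kb after 72 h against 3.62 kb at 0 h on the left and 4.93 kb against 3.29 kb on the right. The window just outside on the right had 2.31 kb against 1.72 kb, and the one just outside on the left held no peak in any list.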

How the data were processed

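Peak lists of 6 captured libraries of SK-N-BE(2), 1 per time, were used as the authors deposited them. Each holds the chromosome, start and end of its peaks and no other measure. Per the submitters' processing notes, which name hg19, MACS2, HTSeq and BWA 0.7.17, the lists are in hg19; the role of each tool, the calling threshold and any control are not stated in these sources. Samples were grouped by time and oxygen in the labels.

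Peaks were placed by midpoint in gene bounds rounded to whole kb. Covered length is the sum of peak widths. Ratios of peak number have exact 95% conditional binomial intervals. Windows of 50 kb on chromosomes 1 to 22 and X were called by size alone (ratio past 1.5, mean of at least 1.6 kb). Overlap of at least 1 bp merged peaks into regions. Positions are 1-based. Read depth is unknown, so values have counting error only.

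Gene names, promoters and strands came from RefSeq tables of GRCh38.p14; all 4 genes matched, 3 with a promoter. Regions named singly were the 5 widest of 0 h, the 5 with most gain and loss, and the widest gained and lost; the sites of the genes, the window examples, the stretch and the runs were named after their values were seen. The members and lists were chosen with earlier results of these data known. The counts were tested on simulated lists of 59800 peaks, where 6 of 6 quantities came back. Versions were pandas 2.3.3, SciPy 1.17.1, NumPy 2.4.6 and Matplotlib 3.10.9 under Python 3.11.15.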

Additional observations from a re-analysis of the deposited data

How the results depend on the processing

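Of 410 alternatives, 376 kept their value within the counting interval (for counts, within 1.5 times) and 34 moved. The interval of peak number was also used for covered length. It is wide for single genes and short spaces, so staying within it says little there. At 72 h covered length scaled by the flanks was 0.992 in NBAS and 0.982 in FAM49A. Whether these 2 genes lie above 1 therefore rests on the scaling. Among the 80 alternatives of the main results (whole span and MYCN to FAM49A at 72 h, windows and runs), 58 kept their value and 22 moved. A reversal was looked for only where the main ratio was past 1.5, and none was found. The space from MYCN to FAM49A was below 1 at 72 h under all 10 alternatives of covered length run (0.493 to 0.778, with 0.778 the value without scaling). For the whole span at 72 h, peak number and covered length were 1.1 and 1.12 without scaling, so their direction rests on the scaling, and 0.751 and 0.692 with peaks of at least 1000 bp; covered length was 0.733 scaled by the flanks. Lower windows at 48 h numbered 19 of 81 at 25 kb, 5 of 24 at 100 kb and 5 with a ratio past 2. At 72 h they numbered 5 at 100 kb, 0 with a ratio past 2 and 5 with 6 h as the reference. Higher windows at 48 h numbered 3 at 25 kb, 2 with no minimum, 3 by peak number, 4 with peaks of at least 500 bp and 2 with 6 h as the reference. At 72 h they numbered 4 at 25 kb, 0 with a ratio past 2, 3 with no minimum, 2 by peak number and 3 with peaks of at least 500 bp. Chosen after seeing the data, the run of narrower sites had 52 to 66 sites at 48 h and 37 to 55 at 72 h, against at most 19 elsewhere; at 48 h it began at 16060200 with 6 h as the reference and ended at 16612927 with the narrowest width subtracted. No cause of these changes was tested. No paired analysis was possible because each time has 1 sample. No replicate could be left out for the same reason. Unknown depth and 1 library per time limit all values.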
